A study of Mus musculus with 19 samples.

Results

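Solute carriers are the membrane proteins that move sugars, amino acids, organic acids, ions, vitamins, nucleosides and metals across the plasma membrane and the membranes of organelles. The carriers described here are the genes whose symbol begins with Slc and a digit and whose mean normalized count was at least 50 in the cornea or the conjunctiva of C57BL/6 mice. The rule took 192 of the 24552 genes in the tables, out of 376 Slc symbols, and left out *Slc6a6*, *Slc5a3* and *Slc38a2*, which handle taurine, inositol and neutral amino acids. The mean reached 50 in the cornea for 156 members, in the conjunctiva for 187 and in both tissues for 151. A further 181 Slc symbols stayed under the level in both tables. The members just inside included *Slc2a10* and *Slc25a29*, whose higher tissue mean was 51.9 and 53.9 normalized counts, and the symbols just outside were *Slc18a1*, *Slc7a4* and *Slc23a1* with 43.5, 43.2 and 41.5. Since the level chose the members, a high level is no finding about them. The rule also took 5 symbols that name no carrier, which are the scaffold genes *Slc9a3r1* and *Slc9a3r2*, the adaptor gene *Slc4a1ap*, the opposite-strand gene *Slc7a6os* and *Slc2a4rg-ps*.

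The 19 RNA sequencing libraries were of AL mice, which ate ad libitum, and of CR mice, which were calorie restricted, with 5 AL and 5 CR libraries from the cornea and 4 AL and 5 CR libraries from the conjunctiva. All mice were of the C57BL/6 strain by the labels (C57BL/6 J by the methods) with no stated transgene. By the methods they were female, entered the study at 6 to 7 months of age and spent 4 months on either diet, the CR mice with 40% less food given daily before the dark phase. The methods describe separate cohorts at different sites. In the later cohort the CR mice ate a chow with more vitamins and micronutrients than the AL chow. The sample titles do not say which cohort gave these libraries. The corneal samples were scraped epithelium. Every sample title carries the codes 6M and 50W, which the labels do not explain, and the submitters' text calls the mice young. Nothing in the labels says how many animals gave each library, so p-values measure the spread between these libraries, which may in part be technical. Several tissues were taken from each mouse, so a cornea and a conjunctiva library with the same diet and number may be of 1 mouse, which the labels do not settle. Values are normalized counts, that is reads per gene over the library's size factor, and a log2 change is the CR mean minus the AL mean of log2(normalized count + 1), which understates the change of genes with few reads. A gene was called changed when limma gave a Benjamini-Hochberg adjusted p under 0.05 over all genes fitted and the fold change was over 1.5. Of the members, 180 entered the cornea fit and 191 the conjunctiva fit, which asked for a mean of 10 normalized counts in the tissue.

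Cornea libraries held 10354125 to 14681223 counted reads, of which the members took 0.626% to 0.712%. Conjunctiva libraries held 10726717 to 14433441, and the members' share was 0.766% to 0.982%. The tables show no molecular identifiers, so a floor of 3 reads for a gene at 0, or 2.27 to 3.37 normalized counts, covers counting error only. The summed corneal epithelial markers ran from 470354 to 695373 in CR corneas, and the goblet cell markers were at 17.5 to 123 normalized counts in AL corneas against 5362 to 7837 in AL conjunctivas. Cornea AL 4 stood apart from its group with 45.2% of genes at 0 reads, where the other AL corneas had 38.7% to 40.7%, and cornea CR 1 had 39.9% where the other CR corneas had 42.7% to 47.6%. Lacrimal gland markers summed to 39288 in cornea AL 1 and to between 50.2 and 974 in the other corneas. Skeletal muscle markers ran from 10518 to 104562 across the conjunctiva libraries. In the GENCODE vM21 annotation 86 of the 192 members overlap another gene, and since it is not known whether strand was used in counting, reads of such pairs could have been shared. In such bulk samples fewer cells of a type and less RNA per cell cannot be told apart.

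Carriers are grouped in families by sequence, and the family number says roughly what is carried. SLC2 and SLC5 proteins take up glucose and other sugars, SLC1, SLC6, SLC7 and SLC38 proteins carry amino acids, SLC16 proteins carry lactate and other monocarboxylates with protons, and SLC25 proteins serve the inner membrane of mitochondria. In the ocular surface epithelium, chloride and bicarbonate carriers help set the fluid of the tear film and the hydration of the cornea, and since the cornea has no vessels its cells depend on carriers for glucose and amino acids that diffuse from the tear film and the aqueous humor. Zinc carriers of the SLC30 family lower and those of the SLC39 family raise the zinc of the cytosol.

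Per kilobase of exon (GENCODE vM21, all annotated exons of a gene merged), the order of the members differed little between the tissues at its top. The methods describe an oligo(dT)-primed kit. If reads lay mainly near the 3′ end, a level per kilobase would understate long genes, so ranks between genes of unlike length are uncertain. In the conjunctiva *Slc16a11*, which codes for monocarboxylate transporter 11, came first of 192 with 3358 ± 463 normalized counts per kilobase (mean ± SD over 9 libraries), followed by *Slc25a4*, the ADP/ATP carrier of muscle and other tissues, with 2891 ± 1629. The ranges of these neighbours overlapped. *Slc3a2*, the heavy chain that partners the light chains of several amino acid exchangers, took place 3 with 1299.5 ± 209. In the cornea *Slc25a4* came first with 1317 ± 257 over 10 libraries, *Slc16a11* place 2 with 1066 ± 428, and the other ADP/ATP carrier *Slc25a5* place 3 with 922 ± 159.7, again with overlapping ranges. *Slc5a1*, the sodium-glucose cotransporter, stood at place 5 in the cornea with 749 ± 277 and at place 17 in the conjunctiva with 401 ± 126. High places in the cornea also went to *Slc25a24* (an ATP-Mg and phosphate carrier), *Slc25a3* (the mitochondrial phosphate carrier), *Slc35a1* (the Golgi carrier of CMP-sialic acid) and *Slc6a14* (a carrier of neutral and cationic amino acids), at 914, 623, 557 and 539 normalized counts per kilobase.

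The tissues were scaled in separate tables, so their levels are set side by side as RPM (reads per 1000000 counted reads), with no test. All conjunctiva libraries lay above all cornea libraries for 41 members (21.4%), all below for 6 (3.12%), and the ranges overlapped for 145. Over the 11550 genes that reach the same level in either table these shares were 19.8% and 4.95%. The median log2 ratio of conjunctiva over cornea was 0.38 for the 190 members with reads in both tissues and 0.26 for the 11550 genes. On the cornea side stood *Slc16a12*, a creatine transporter, at 13.6 to 34.7 RPM against 0 to 0.838, the orphan carrier *Slc35f2* at 20.9 to 46.3 against 0.229 to 7.18, and the thiamine transporter *Slc19a2* at 60.0 to 131 against 9.58 to 23.1. *Slc34a2* (sodium-phosphate), *Slc7a1* (arginine and lysine) and *Slc25a48* completed the 6. On the conjunctiva side stood *Slc15a2*, the high-affinity peptide transporter, at 207 to 285 against 15.4 to 45.5, and *Slc16a11* at 537 to 773 against 121 to 398. The cystine and glutamate exchanger *Slc7a11* was at 24.8 to 67.4 against 0.267 to 6.95. The organic cation transporter gene *Slc22a3* had 0 reads in all 10 corneas. Amino acid carriers gave 9 of the 41 members and the 9 carriers of monocarboxylates, dicarboxylates and citrate gave 5.

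**Figure D1:**
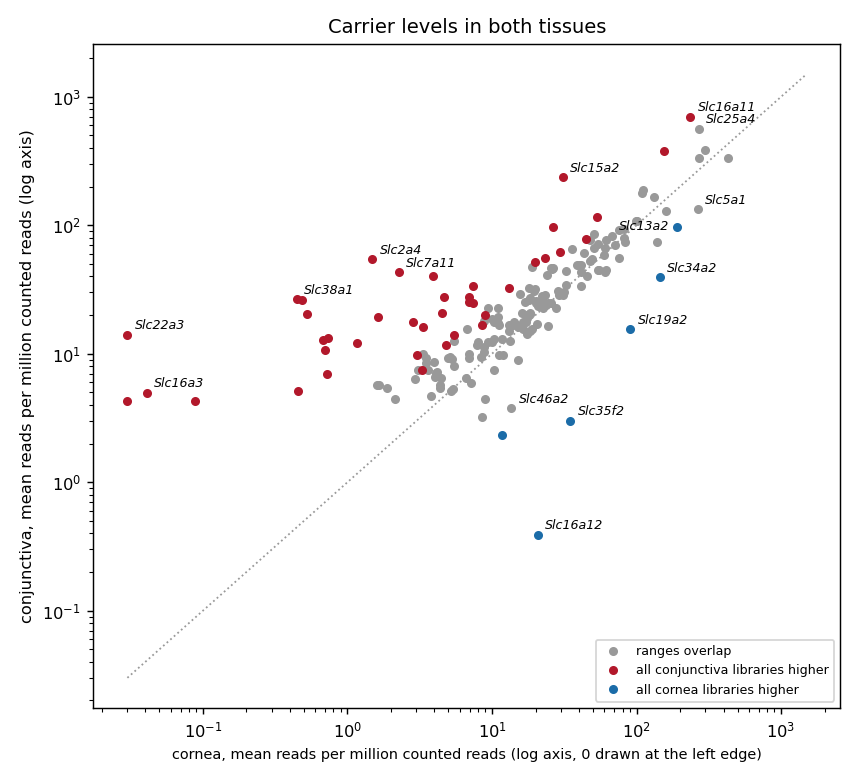
Mean RPM (reads per 1000000 counted reads) of the 192 members in the cornea (horizontal) and the conjunctiva (vertical), both on log axes, with members at 0 in the cornea drawn at the left edge. Red points are the 41 members whose conjunctiva libraries were all higher, blue points the 6 whose cornea libraries were all higher, grey points those with overlapping ranges, and the dotted line marks equal levels.

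A pair of members known from muscle are given beside the skeletal muscle markers. *Slc25a4* was at 4334, 3943, 8760.3 and 6045 normalized counts in AL 1, 3, 4 and 5 and at 5209, 7082, 15973, 6553 and 3329 in CR 1 to 5. The insulin-responsive glucose transporter *Slc2a4* was at 691, 302, 849.9 and 696 in the same AL libraries and at 658, 779, 1266, 544 and 123 in the CR libraries. Both were highest in CR 3 and lowest in CR 5, and the diets overlapped widely. The muscle markers summed to 104562 in CR 3, the most of the 9 libraries, and to 12256 in CR 5 and 10518 in AL 3, the least. AL 1 and AL 4 had like marker sums, 46862 and 45043, although *Slc25a4* was higher in AL 4. In the corneas these markers summed to at most 66.8. The part of muscle in the levels of these carriers was not tested.

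In the cornea 2 of the 180 members fitted were called changed, *Slc16a11* higher and *Slc46a2* lower under CR. That is 0.556% in each direction, beside 0.749% of all 12278 genes fitted called higher and 0.472% called lower. At an adjusted p under 0.05 with any fold there were 3 members (1.67%), with *Slc7a1* in addition, beside 1.53% of all genes. The share of members called was thus near that of all genes. At an unadjusted p under 0.05, 21 members (11.7%) were higher and 14 (7.78%) lower, where 8.52% and 9.55% of all genes were. AL and CR values were apart for 7 members higher under CR (3.89%, against 2.08% of all genes) and for 5 lower (2.78%, against 1.89%). The median log2 change of the members was 0.013 and that of all genes −0.027, and 157 of 180 members (87.2%, all genes 82.3%) were fitted within 1.5-fold. Leaving out cornea AL 4 raised the count of changed members from 2 to 10, and leaving out CR 1 or CR 7 raised it to 4. Leaving out AL 4 and CR 1 together raised it to 15. *Slc16a11* and *Slc46a2* were called in each of these fits. Calls over all genes rose as well, from 92 higher and 58 lower in the main fit. They came to 536 of 12310 without AL 4, 309 of 12240 without CR 1 and 162 of 12279 without CR 7. Without AL 4 and CR 1 together they came to 1212 of 12281.

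*Slc46a2* codes for a proton-coupled carrier of the folate transporter family, known from thymic stroma and from the import of bacterial cell wall fragments. It was among the genes known to fall in earlier results of these data, so its values here are a repeat and no independent support. In the AL corneas it was at 256, 258, 267, 182 and 221 normalized counts (replicates 1 to 5), and in the CR corneas at 72.3, 114, 61.4, 81.7 and 62.2 (replicates 1, 2, 3, 4 and 7). The lowest AL library was above the highest CR library. The means were 237 ± 35.3 (SD, n = 5) and 78.3 ± 21.6 (SD, n = 5), a log2 change of −1.61 ± 0.21 (SE, 95% interval −2.05 to −1.16, adjusted p = 4.60e-04), or 3.05-fold lower under CR. In the conjunctiva the gene was at 50.6, 61.7, 68.9 and 60.0 in the AL libraries and 17.5, 20.0, 33.8, 17.4 and 86.4 in CR 1 to 5. The first 4 of these CR libraries lay below every AL library, and CR 5 lay above them all. CR 5 also held meibomian gland markers at 13416 normalized counts, against 3021 to 3896 in the other 8 conjunctivas, and the part of that gland in its values was not tested. The log2 change there was −1.05 ± 0.47 and did not pass (adjusted p = 0.494). Without CR 5 it was −1.45 (adjusted p = 0.16).

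*Slc13a2* codes for the sodium-coupled carrier of citrate and succinate at the cell surface. It too was known beforehand as a strong fall. In the conjunctiva it was at 1622, 1448, 1342 and 1426 normalized counts in AL 1, 3, 4 and 5 and at 469, 822, 649, 589 and 621 in CR 1 to 5. No CR library came near the AL range. The means were 1459 ± 118 (SD, n = 4) and 630.1 ± 127 (SD, n = 5), and the log2 change was −1.23 ± 0.16 (95% interval −1.56 to −0.90, adjusted p = 0.00196), or 2.35-fold lower under CR. In the cornea it was at 832, 875, 1167, 841 and 986 in AL 1 to 5 and at 461, 632, 549, 689 and 815 in CR 1, 2, 3, 4 and 7, again with no overlap. The corneal log2 change of −0.59 ± 0.15 missed the threshold (adjusted p = 0.0517). The antisense gene *Slc13a2os* overlaps *Slc13a2* on the other strand, and had at most 2 reads in any library. All 4 macrophage markers fitted in the cornea (1 called changed) and all 7 in the conjunctiva (0 called by limma) had log2 changes below 0. Sums over all 7 macrophage markers, including those too low for the corneal fit, were 299 to 392 in AL against 139 to 297 in CR corneas. In the conjunctivas they were 2729 to 3480.2 against 1874 to 2603. All 7 fibroblast and collagen markers (2 called changed) were below 0 in the conjunctiva. In the cornea 3 of these 7 were below 0 and 4 above, and 0 were called by limma. The part of these cells in the falls of *Slc46a2* and *Slc13a2* was not tested.

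The stretches before the starts of *Slc13a2* and *Slc46a2* are shown. Among the members called changed, only these had a window that met the filter of touching no annotated exon. They were taken from RefSeq (GRCm38.p6), 250 bases each, both on the minus strand and printed 5′ to 3′. *Slc13a2* lies at chr11:78397087-78422217 with its window at chr11:78422235-78422484, and *Slc46a2* lies at chr4:59905126-59915056 with its window at chr4:59915057-59915306. Capitals mark matches to any of the motifs searched.
Slc13a2: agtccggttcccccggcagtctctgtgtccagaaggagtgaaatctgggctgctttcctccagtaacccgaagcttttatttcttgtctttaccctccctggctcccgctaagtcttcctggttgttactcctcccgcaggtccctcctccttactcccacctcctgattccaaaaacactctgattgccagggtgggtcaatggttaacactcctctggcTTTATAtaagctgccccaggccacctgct
Slc46a2: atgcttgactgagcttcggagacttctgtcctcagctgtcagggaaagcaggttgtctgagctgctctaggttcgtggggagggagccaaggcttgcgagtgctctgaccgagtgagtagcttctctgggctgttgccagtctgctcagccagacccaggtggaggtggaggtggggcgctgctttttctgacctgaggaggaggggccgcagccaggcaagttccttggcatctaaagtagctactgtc
The 5 motifs were each searched on both strands. They were the clock E-box with the letters CACGTG, the D-box of other clock factors in the forms TTATGTAA, TTACATAA and TTACGTAA, the GC box of the factor SP1 with the letters GGGCGG, a basal promoter motif with the letters TATAAA, and the binding letters of the factor NF-Y, which are CCAAT. *Slc13a2* held the searched basal letters in reverse orientation close before its start, and *Slc46a2* held none of the 5. The bases at that *Slc13a2* match also read TATATAAG in the forward direction, a form that was not searched. Among 32851 promoter windows of that length, 12.4% held the basal motif, 6.02% the E-box, 32.7% the GC box, 33.8% the NF-Y letters and 0.931% the D-box. Of the windows of members, in the same order, 4.69%, 12.5%, 63%, 30.2% and 1.04% did, and 146 members were matched to at least 1 window.

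*Slc16a11* was the member called higher. Its corneal values were 1429, 1448, 2305, 2127 and 1765 normalized counts in AL 1 to 5 and 3063, 3567, 4429.8, 2872 and 4221 in CR 1, 2, 3, 4 and 7. Every CR library was above every AL library. The means were 1815 ± 395 (SD, n = 5) and 3631 ± 687 (SD, n = 5), with a log2 change of 1.01 ± 0.15 (95% interval 0.68 to 1.33, adjusted p = 0.00222), or 2.01-fold higher. In the conjunctiva, where its level was higher, it was at 8662, 6467, 7098 and 8906 in AL and 9309, 9651, 7847, 9774 and 9470.5 in CR libraries, which overlapped. The conjunctival log2 change was 0.25 ± 0.14 (95% interval −0.052 to 0.55, adjusted p = 0.616). Its neighbour *Slc16a13*, which codes for monocarboxylate transporter 13 and faces it on the other strand (chr11:70212752-70216417 and chr11:70216789-70221064, GRCm38), had a corneal change of the opposite sign. *Slc16a13* was at 132, 156, 135, 141 and 183 in AL and 92.0, 122, 69.7, 114 and 52.9 in CR corneas, with a log2 change of −0.78 ± 0.24 and an adjusted p of 0.11.

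*Slc7a1* codes for the cationic amino acid transporter that takes up arginine and lysine. The corneal values were 1901, 1953, 1729, 1788 and 1659 in AL and 2572, 2952, 2615, 2627 and 2135 in CR libraries, with no overlap. Its log2 change of 0.51 ± 0.11 had an adjusted p of 0.0195 at 1.42-fold, under the fold asked for. That p was 0.0985 with the replicate block and 0.0695, 0.0753, 0.0727 and 0.0693 without AL 3, AL 5, CR 2 or CR 3, and passed 0.05 in the other alternatives run. The conjunctival values, 995, 1156, 1127 and 1008 in AL and 1326, 1192, 1159.5, 1352 and 1356 in CR libraries, did not overlap either, at a log2 change of 0.25 ± 0.13 (adjusted p = 0.553).

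**Figure D2:**
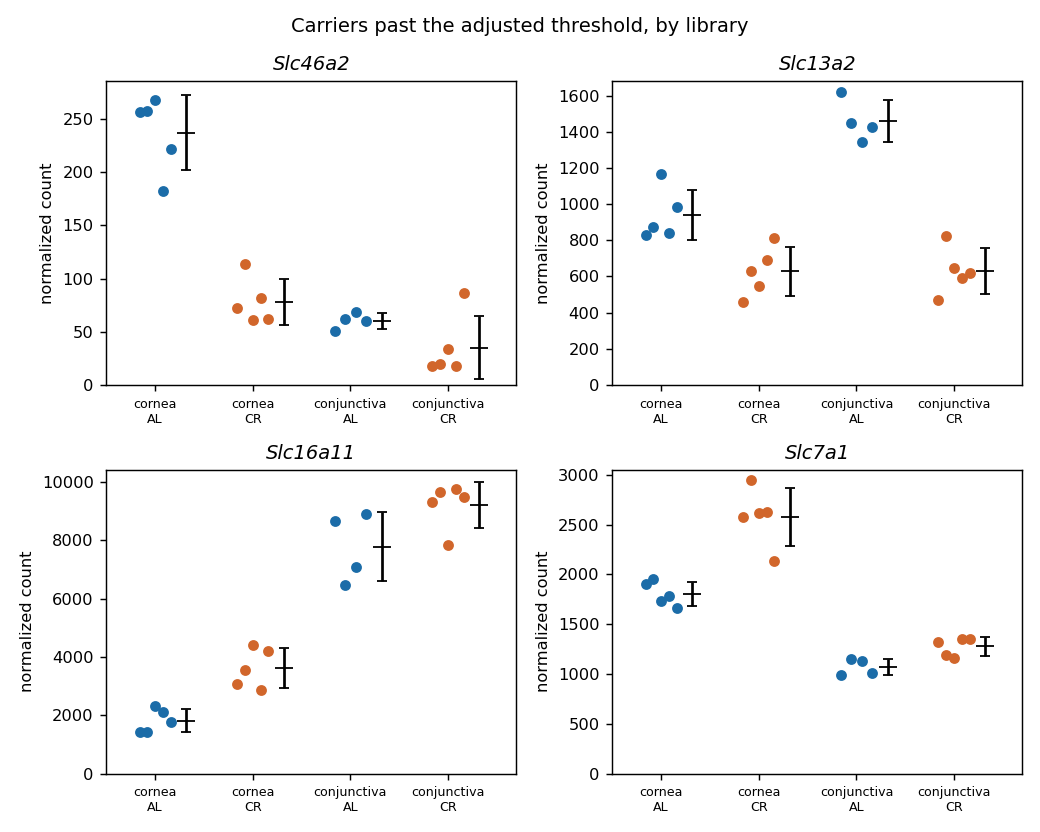
Normalized counts of the 4 members past an adjusted p of 0.05 in a tissue, by library, for AL (blue) and CR (orange) in the cornea and the conjunctiva. Bars give the mean and SD of each group, and each vertical axis starts at 0. For *Slc46a2* and *Slc16a11* in the cornea and for *Slc13a2* and *Slc7a1* in both tissues the AL and CR points do not overlap.

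In the conjunctiva *Slc13a2* was the only one of 191 members called changed by the limma fit, and 0 were called higher, where 0.223% of all 13929 genes were called higher and 0.136% lower. At an unadjusted p under 0.05, 13 members were higher and 12 lower by the same fit. The share past the adjusted p alone was 0.524% for the members and 0.359% for all genes. Those 13 members made 6.81% and the 12 made 6.28%, beside 4.53% and 4.87% of all genes. Groups did not overlap for 5 members higher under CR (2.62%, all genes 1.92%) and 7 lower (3.66%, all genes 1.95%). The median log2 change of the members was −0.00067 (all genes −0.016), and 170 of 191 (89%, all genes 84.7%) were fitted within 1.5-fold. Without CR 3 the count of changed members was 2, the sulfate transporter *Slc26a2* being the other, beside 127 of all 13913 genes.

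Among members that were not called in the cornea, the 8 with the smallest p included the essential amino acid exchanger *Slc7a5*, which pairs with *Slc3a2*. It was at 179, 175, 139, 203 and 143 in AL and 226, 253, 224, 290.2 and 286 in CR corneas, with no overlap, and a log2 change of 0.61 ± 0.17 (adjusted p = 0.0719). The zinc exporter *Slc30a1* was at 294, 274, 262, 287 and 344 and 332, 504, 470.5, 372 and 449, with overlap (log2 change 0.53, adjusted p = 0.0759). The Golgi carrier of UDP-N-acetylglucosamine *Slc35a3* was at 188, 187, 283, 260.0 and 182 and 319, 322, 294, 300.4 and 328, and every CR value was above the AL values (log2 change 0.53, adjusted p = 0.106). *Slc35a5*, of the same family, had a log2 change of 0.70 ± 0.19 (adjusted p = 0.07) and *Slc16a12* one of 0.66 ± 0.20 (adjusted p = 0.11). The remaining member of the 8 on the low side was *Slc4a7*, a sodium-bicarbonate cotransporter, at 560.0, 640.2, 607, 894 and 821 in AL and 482, 456, 417, 508 and 517 in CR corneas. Its groups did not overlap, and its log2 change was −0.55 ± 0.14 (adjusted p = 0.0616).

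The conjunctival 8 were other genes. *Slc35f5*, an orphan carrier, was at 732, 821, 836 and 768 in AL 1, 3, 4 and 5 and 567, 463, 569.6, 409 and 563 in CR 1 to 5, with no overlap and a log2 change of −0.63 ± 0.15 (adjusted p = 0.0901). *Slc26a2* was at 164, 177, 160.3 and 109.9 in AL and 419.8, 257, 190.2, 482 and 602 in CR libraries. All CR values were above the AL values but spread from 190.2 to 602, and the log2 change was 1.25 ± 0.30 (95% interval 0.60 to 1.90, adjusted p = 0.117). The glycine transporter *Slc6a9* was at 613, 673, 676 and 469 and 1002, 851, 819.7, 858 and 858, with no overlap (log2 change 0.54, adjusted p = 0.16). *Slc40a1*, which codes for the iron exporter ferroportin, was at 53.2 ± 11.6 (SD, n = 4) and 112 ± 42.5 (SD, n = 5) (log2 change 1.01, adjusted p = 0.244), also with no overlap. On the low side, *Slc16a9*, coding for monocarboxylate transporter 9, was at 361, 272, 284 and 429 and 161, 132, 201, 267 and 173, and *Slc19a2* was at 269, 208, 257 and 198 and 153, 162, 176, 128 and 134. Neither pair of groups overlapped, and the log2 changes were −0.86 (adjusted p = 0.132) and −0.62 (adjusted p = 0.257). *Slc34a2* and *Slc7a11*, whose groups overlapped, had log2 changes of −0.74 and 0.65 (adjusted p = 0.219 and 0.282).

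**Figure D3:**
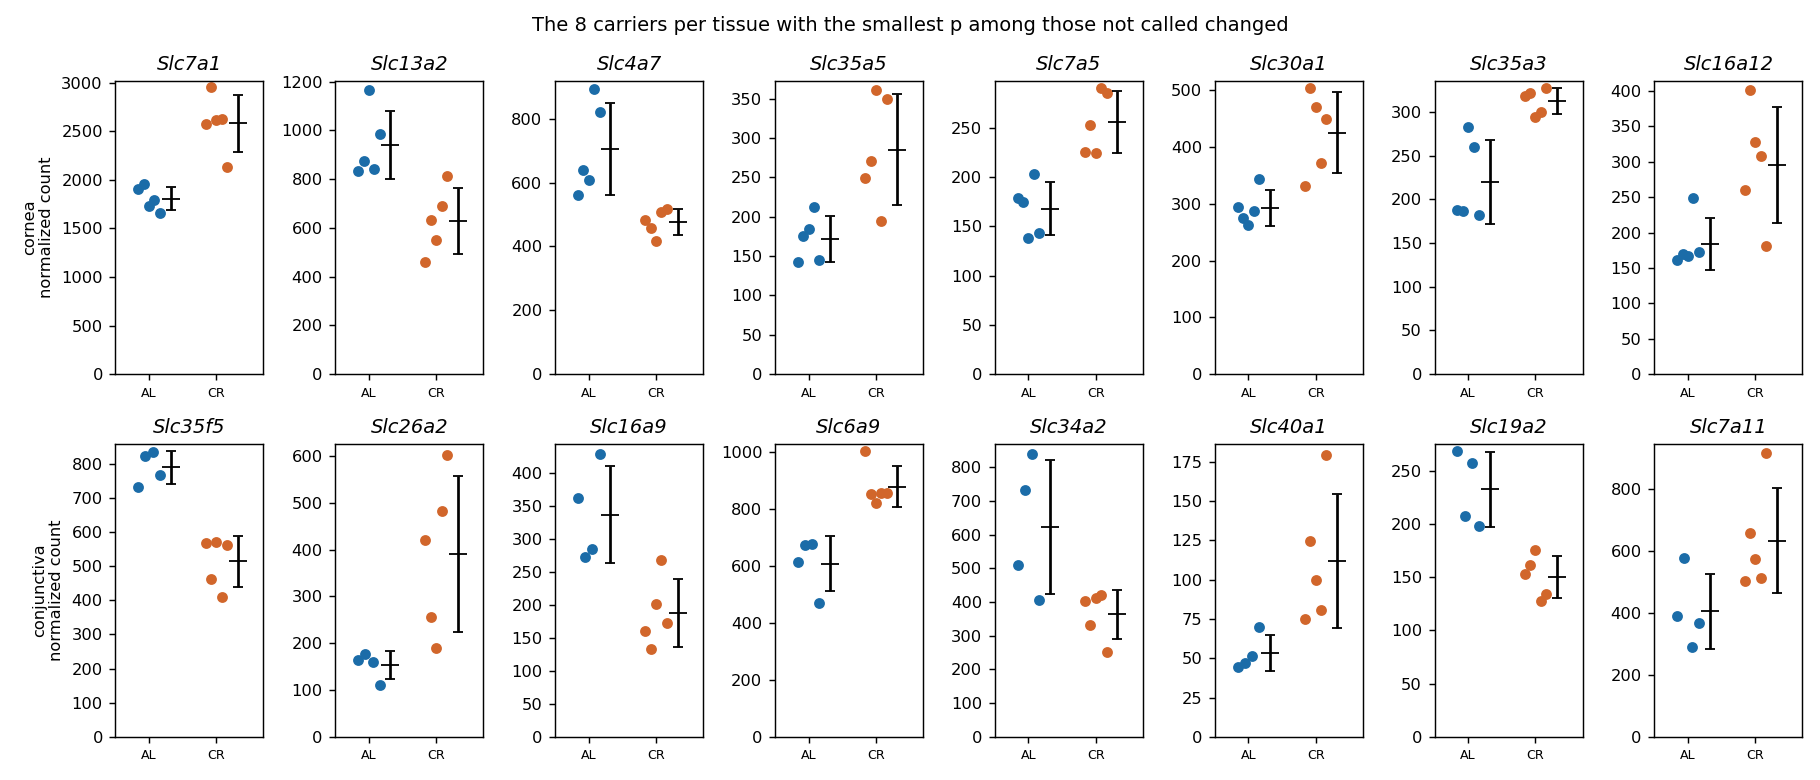
Normalized counts by library of the 8 members per tissue with the smallest p among those not called changed, cornea above and conjunctiva below, with AL in blue and CR in orange. Bars give the mean and SD, and each panel has its own vertical axis from 0. Several panels show groups that do not overlap, although no adjusted p and fold passed together.

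Of the 179 members fitted in both tissues, 112 (62.6%) had log2 changes of the same sign, beside 59.9% of the 11929 genes fitted in both. Across these members the log2 changes in the 2 tissues correlated at Pearson 0.389 and Spearman 0.418 (all genes 0.402 and 0.292), which is a description over genes, not over replicates. An unadjusted p under 0.05 in the same direction in both tissues was found for 7 members (3.91%, all genes 2.57%). These were *Slc13a2*, *Slc46a2*, *Slc25a45* and *Slc4a11* on the low side and *Slc25a16*, *Slc35a3* and *Slc46a3* on the high side. *Slc46a3* codes for a lysosomal relative of *Slc46a2* and had log2 changes of 0.76 ± 0.31 in the cornea and 0.54 ± 0.23 in the conjunctiva, in the direction opposite to its relative. *Slc4a11*, a carrier gene of the corneal endothelium mutated in an inherited corneal dystrophy, had −0.58 ± 0.25 and −1.07 ± 0.46. None of these values for *Slc25a45*, *Slc4a11*, *Slc25a16*, *Slc35a3* and *Slc46a3* passed adjustment by limma in either tissue.

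The difference between tissues was tested as the conjunctival log2 change minus the corneal one, with the libraries taken as independent and Benjamini-Hochberg adjustment over the 11929 genes. Same-numbered corneas and conjunctivas deviated from their group means with correlations of −0.42 to 0.144 over genes, and testing the difference per shared number also gave 0 members. No member (0 of 179) passed an adjusted p under 0.05, where 0.0168% of all genes did, and 11 members (6.15%) had an unadjusted p under 0.05, against 7.48% of all genes. The smallest p belonged to *Slc16a11*, with a difference of −0.76 ± 0.21 (SE from limma, unadjusted limma p of 0.00102, adjusted p = 0.301). *Slc19a2* followed with −0.87 ± 0.26 (adjusted p = 0.367) and then *Slc13a2* with −0.64 ± 0.22 (adjusted p = 0.442). The call of *Slc16a11* in the cornea alone and of *Slc13a2* in the conjunctiva alone was therefore not shown to be a difference between the tissues. *Slc26a2* differed by 1.06 ± 0.40, the sodium-potassium-chloride cotransporter *Slc12a2* by 0.53 ± 0.20, *Slc22a18* by 0.64 ± 0.28, the carnitine-acylcarnitine carrier *Slc25a20* by 0.85 ± 0.36 and *Slc16a9* by −0.83 ± 0.36, with adjusted p-values from 0.515 to 0.638.

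**Figure D4:**
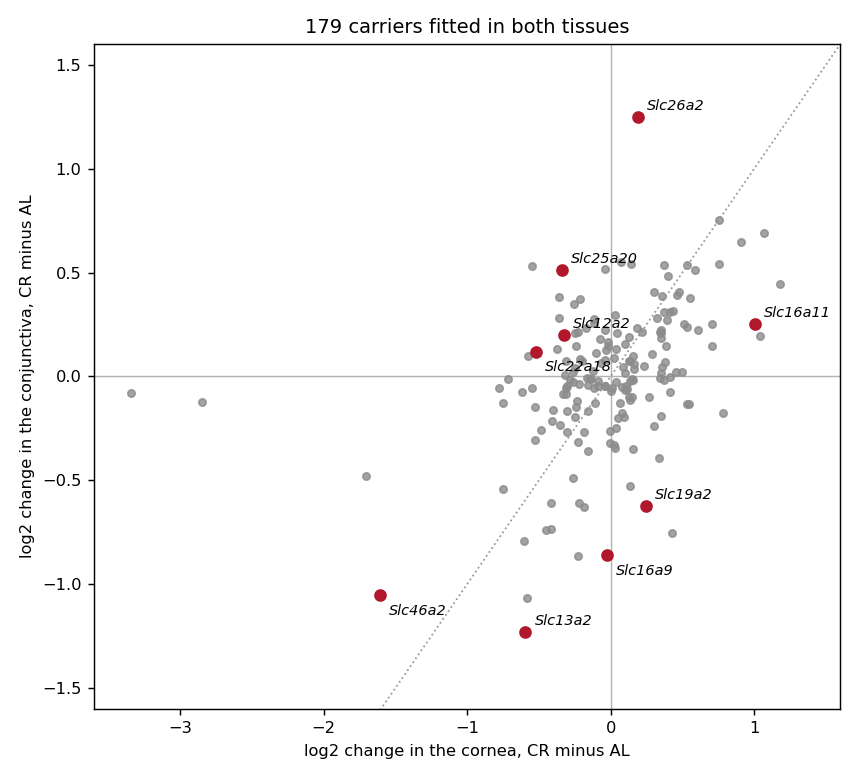
Log2 change under CR in the cornea (horizontal) and the conjunctiva (vertical) of the 179 members fitted in both tissues. Red points with names are those called changed or among the 8 with the smallest p for the difference between tissues, and the dotted line marks equal change. *Slc46a2* and *Slc13a2* lie at the lower left, and *Slc16a11* lies at 1.01 in the cornea and 0.25 in the conjunctiva.

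By what the families carry, nearly every group held members on both sides of 0. Groups were made by family number alone, so their counts and medians include the 5 symbols that name no carrier. For the same reason the sulfate transporter *Slc26a2* is counted with the chloride and bicarbonate carriers. The 9 carriers of monocarboxylates, dicarboxylates and citrate held 1 changed member in each tissue, *Slc16a11* in the cornea and *Slc13a2* in the conjunctiva, and of the 8 fitted in the cornea 4 were higher and 4 lower. The 12 carriers of vitamins, choline and heme held *Slc46a2*. The lysosomal heme carrier *Slc48a1* and the choline-family gene *Slc44a4*, abundant members of that group, had conjunctival log2 changes of 0.13 and −0.045. No member of any other group was called changed in either tissue, and the counts given for these groups are at an unadjusted limma p under 0.05. Of all genes, 8.52% were higher and 9.55% lower at that p in the cornea, and 4.53% and 4.87% in the conjunctiva. No group count was tested against these shares.

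Among amino acid carriers, 13 of 19 fitted in the cornea and 14 of 23 in the conjunctiva were higher under CR, with medians of 0.13 and 0.10 on the log2 scale. In the cornea 2 were higher (*Slc7a1*, *Slc7a5*) and 2 lower (*Slc1a3*, *Slc38a7*) at an unadjusted p under 0.05. In the conjunctiva 5 were higher (*Slc1a4*, *Slc38a6*, *Slc43a3*, *Slc6a9*, *Slc7a11*) and 1, the neutral amino acid exchanger *Slc7a8*, was lower. *Slc6a14* was at 1606 ± 388 (SD, n = 5) in AL and 2099 ± 1380.3 (SD, n = 5) in CR corneas, CR 7 alone reaching 4454, and its log2 change of 0.22 ± 0.37 did not pass (adjusted p = 0.798). *Slc3a2* was at 4628 ± 927 (SD, n = 4) and 4552 ± 662 (SD, n = 5) in the conjunctiva, with a log2 change of −0.014 (95% interval −0.36 to 0.34).

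Sugar carriers had medians of 0.13 in the cornea (13 fitted) and −0.086 in the conjunctiva (14 fitted), with 1 member higher and 1 lower at an unadjusted p under 0.05 in the cornea and 0 in the conjunctiva by limma. The higher one, *Slc5a6*, codes for a vitamin transporter filed here by its family number. It was at 55.8 ± 27.4 (SD, n = 5) in AL and 104 ± 25.9 (SD, n = 5) in CR corneas, with overlap (log2 change 1.04, 95% interval 0.28 to 1.80, adjusted p = 0.154). The lower one, *Slc2a1*, the glucose transporter of most cells, was at 376 ± 80.9 (SD, n = 5) in AL and 267 ± 92.9 (SD, n = 5) in CR corneas, and the log2 change of −0.53 ± 0.21 did not pass (adjusted p = 0.205). *Slc5a1* was at 2850.5, 4382, 3327, 2910.2 and 3288 in AL and 2093, 2132, 1255, 3279 and 5208 in CR corneas. The CR libraries held both the lowest and the highest of these values, in CR 3 and CR 7, and the log2 change was −0.41 ± 0.34 (adjusted p = 0.561). *Slc5a8*, a sodium-coupled carrier of short monocarboxylates filed with the sugar family by its number, had log2 changes of 0.18 and 0.23 in the cornea and the conjunctiva.

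Of the chloride, bicarbonate, sodium and proton carriers, 11 of 18 were fitted lower in the cornea, with a median of −0.24, and 10 of 19 higher in the conjunctiva, with a median of 0.089. In the cornea 0 were higher and 3 lower (*Slc12a2*, *Slc4a11*, *Slc4a7*) at an unadjusted limma p under 0.05, and in the conjunctiva 1 was higher (*Slc26a2*) and 1 lower (*Slc4a11*). *Slc12a2*, which loads cells with chloride, was at 5339, 5588, 5445, 5895 and 5390.4 in AL and 3589, 4249, 4439, 4705 and 5191 in CR corneas. These groups did not overlap, and the log2 change was −0.33 ± 0.10 (adjusted p = 0.119). In the conjunctiva its log2 change was 0.20 ± 0.17. *Slc9a3r1*, the scaffold of the sodium-proton exchanger, had 0.023 in the cornea.

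The 36 mitochondrial carriers, the largest group, had medians of −0.031 in the cornea and 0.044 in the conjunctiva. In the cornea 4 were higher and 1 lower at an unadjusted p under 0.05, and in the conjunctiva 2 and 2. *Slc25a24* was at 2681 ± 407 (SD, n = 5) and 3594 ± 762 (SD, n = 5) in AL and CR corneas (log2 change 0.41, adjusted p = 0.129). *Slc25a3* had a corneal log2 change of −0.021 with a 95% interval of −0.26 to 0.21. The 25 carriers of nucleosides and nucleotide sugars had medians of 0.027 and −0.028, with 4 higher and 2 lower in the cornea and 2 higher and 1 lower in the conjunctiva at that p. Of these, *Slc28a3*, a concentrative nucleoside transporter, was at 1022 ± 258 (SD, n = 5) and 714 ± 97.8 (SD, n = 5) in the corneas (adjusted p = 0.152), and *Slc35a1* had log2 changes of −0.00054 and −0.069.

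Among the 16 zinc carriers 8 were higher and 8 lower in the cornea, and 6 and 10 in the conjunctiva. At an unadjusted limma p under 0.05, 2 were higher in the cornea (*Slc30a1*, *Slc39a8*) and 0 in the conjunctiva. The importer *Slc39a8* was at 817, 853, 808, 849.8 and 752 in AL and 1029, 889.5, 1276, 1108 and 1001 in CR corneas, with no overlap and a log2 change of 0.37 ± 0.11 (adjusted p = 0.113). The importer *Slc39a4* had log2 changes of 0.15 in the cornea and −0.35 in the conjunctiva (adjusted p = 0.695 and 0.56). The iron and copper carriers fitted in the cornea were all 3 lower, *Slc11a2*, the divalent metal importer, with −0.31 (adjusted p = 0.194). The copper carrier *Slc31a2* had −0.16 and −0.039, and its relative *Slc31a1* 0.023 in the conjunctiva. The magnesium carrier *Slc41a1* had 0.36 and 0.39.

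The 6 carriers of fatty acids and bile acids were all lower in the cornea (median −0.28) with none at an unadjusted p under 0.05, and 5 of 6 were higher in the conjunctiva (median 0.20). The 1 lower there, *Slc27a3* with a log2 change of −0.74, was the only member of the group at an unadjusted limma p under 0.05. *Slc27a4*, a fatty acid importer needed for the skin barrier, had −0.039 and 0.23. Of the 10 carriers of organic cations and anions, 6 of 8 were higher in the cornea (median 0.37) and 6 of 10 in the conjunctiva (median 0.13), with *Slc22a23* at 0.43 and 0.31. Corneal counts at an unadjusted limma p under 0.05 were 2 higher and 1 lower, and the conjunctival count was 0. The 13 carriers of phosphate, sulfate, peptides and lysosomal or vesicular cargo had 1 higher in the cornea (*Slc20a1*, a phosphate carrier) and 2 lower in the conjunctiva (*Slc18b1*, *Slc34a2*) at that p. *Slc15a2*, the most abundant peptide carrier of the conjunctiva, was at 2922 ± 421 (SD, n = 4) in AL and 2879 ± 104 (SD, n = 5) in CR libraries, and its log2 change of −0.011 had a 95% interval of −0.29 to 0.27. The 95% interval lay wholly within 1.5-fold for 56 of 180 members in the cornea and 68 of 191 in the conjunctiva, and for the rest the interval reached past 1.5-fold in at least 1 direction.

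**Figure D5:**
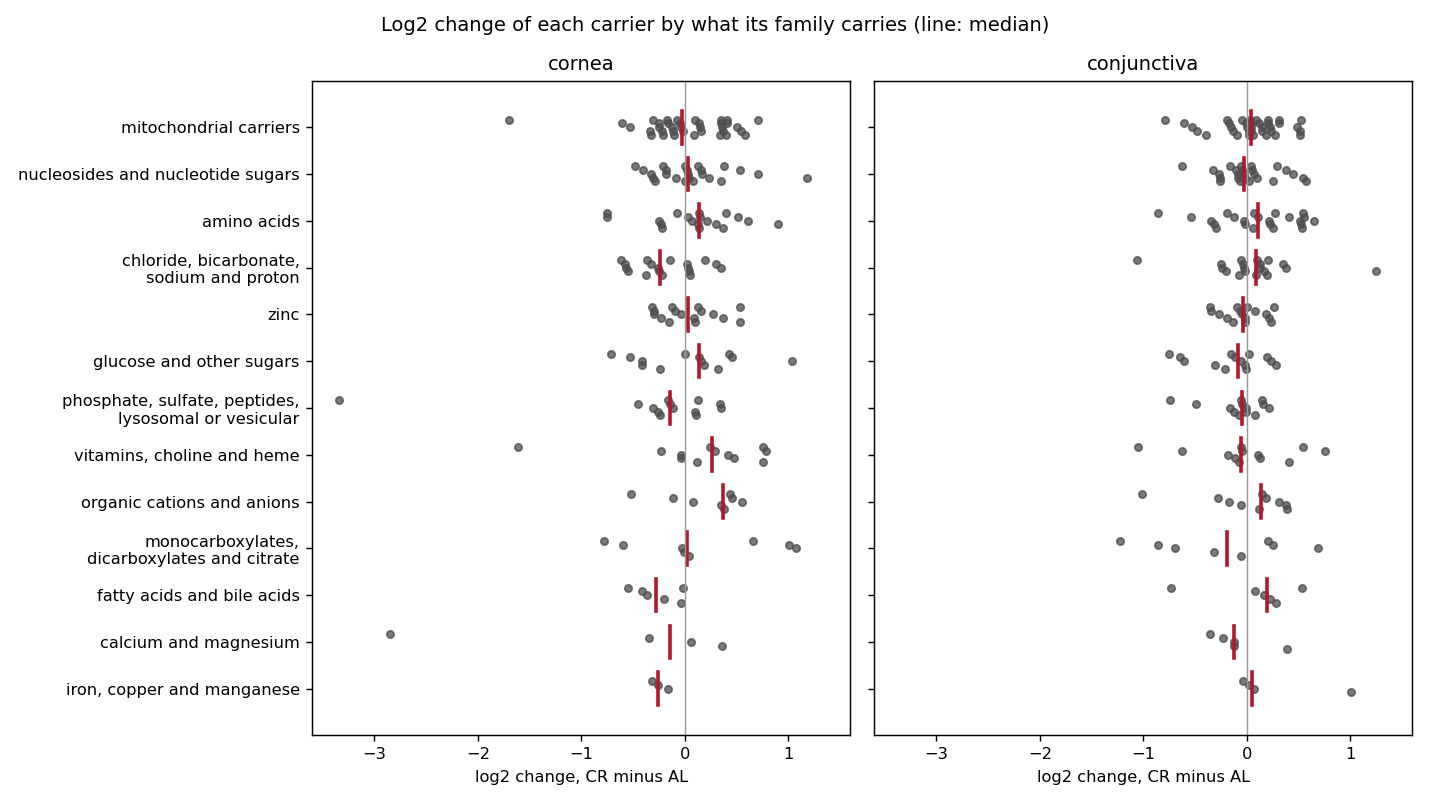
Log2 change under CR of each fitted member (points) by what its family carries, in the cornea (left) and the conjunctiva (right), with the median of each group as a red line. Corneal medians run from −0.28 to 0.37 and conjunctival medians from −0.19 to 0.20, and members of each group fall on both sides of 0 except the iron and fatty acid groups in the cornea.

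The 3 genes left out by name were fitted in the same tables. *Slc6a6*, the taurine transporter, was called higher in both tissues, with log2 changes of 1.21 ± 0.17 in the cornea (adjusted p = 0.00221) and 1.51 ± 0.18 in the conjunctiva (adjusted p = 7.60e-04). *Slc38a2* had 0.54 in the cornea (adjusted p = 0.0445, fold under 1.5) and 0.38 in the conjunctiva (adjusted p = 0.547), and the inositol carrier *Slc5a3* had 0.12 and −0.27. Among other transport genes, 0 of 4 organic anion (Slco), 0 of 4 sodium pump (Atp1) and 0 of 27 ABC transporter genes were called changed in the cornea by limma, with 0, 1 and 6 at an unadjusted p under 0.05. In the conjunctiva the sodium pump subunit *Atp1b1* was called higher, with a log2 change of 0.80 ± 0.16 (adjusted p = 0.0372), and no gene of the 8 Slco and 37 ABC transporters fitted there was.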

How the data were processed

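Gene-level RNA sequencing values of 10 cornea and 9 conjunctiva libraries were used. Per the study's methods, the authors trimmed single reads with cutadapt, aligned them with STAR to mm10 (the submitters' processing notes name GRCm39) and counted reads per gene with HTSeq. In the deposited table of each tissue, the authors give log2 values of counts that DESeq2 size factors had scaled, after adding 1. The labels name a stranded mRNA kit and the methods an oligo(dT)-primed kit, so the library type was not settled. The logarithm was undone to give normalized counts, of which 100% matched whole reads within 0.1 reads.

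Diets were compared within each tissue with limma 3.58.1 (R 4.3.3, statmod 1.5.0), with an intensity trend and robust moderation, on genes with a mean of at least 10. The difference between tissues used Satterthwaite degrees of freedom. The procedure was tested on simulated data. Named genes were the 2 markers, members called changed, the 8 next by p per tissue, the 8 with the smallest p between tissues, the 2 most abundant per role and tissue, and those next to the level of 50. Other genes were named from the lists of calls, after their values were seen. Members and lists were chosen with earlier results of these data known. Alternatives were pseudocounts of 10 and 0.5, no filter, quantile normalization, limma voom on recovered reads, array weights and a replicate block. Others were the share of genes at 0 reads as a covariate, another threshold and leaving out libraries.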

Additional observations from a re-analysis of the deposited data

Results flagged for a closer look

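Among 40 groups of 4 or 5 libraries tested for a library far from the others, 2 held one, and chance alone flags about 1 group in 20. *Slc16a12* was at 248 normalized counts in cornea AL 4, where the other AL corneas were at 161 to 172. *Slc6a9* was at 1002 in conjunctiva CR 1, where the other CR conjunctivas were at 820 to 858 normalized counts.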

How the results depend on the processing

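The calls of *Slc46a2* and *Slc16a11* in the cornea and of *Slc13a2* in the conjunctiva held in every alternative run, with log2 changes of −1.75 to −1.46, 0.76 to 1.13 and −1.33 to −1.13. Of 564 recomputed values of single named genes, 538 kept their side of the threshold, 26 newly passed it and 0 changed sign. Among these, the corneal change of *Slc13a2* passed when array weights were used (adjusted p = 0.00565), when AL 4 (0.0249) or CR 7 (0.0145) was left out, under quantile normalization (0.0423) and at a pseudocount of 10 (0.0472), in a range of 0.00565 to 0.152 over all alternatives. The count of members changed in the cornea was 2, and 10 with array weights, which called 705 of all 12278 genes. Leaving out each library in turn gave 2 to 10 members there and 53 to 536 of all genes. The conjunctival count was 1, ran from 1 to 2 with each library left out, and was 4 with array weights. Over all genes these conjunctival fits gave 26 to 127 and 149. Without AL 4 and CR 1 together, an alternative chosen after seeing the data, the corneal count was 15 members, beside 1212 of all 12281 genes. The cause was not tested. The difference between the tissues was rerun only with the pseudocounts, the covariate, each library left out in turn and the shared numbers. None of these gave a member whose change differed between the tissues (0 in all). Same-numbered AL and CR libraries deviated together only weakly, with correlations of −0.297 to 0.288 (cornea) and −0.0619 to 0.0526 (conjunctiva), and not every library correlated best with its own number, so the numbers were not taken as pairing. With the replicate block the counts were 2 in the cornea and 1 in the conjunctiva. With the share of genes at 0 reads as a covariate they were 3 and 1, beside 62 of all 12278 and 62 of all 13929 genes. *Slc16a11* then had a corneal log2 change of 0.76 and *Slc46a2* one of −1.46. Depth limits members under about 3 reads.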

Other observations

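The largest fitted falls of members in the cornea were not called, and they were singled out after their values were seen. The phosphate and urate carrier family gene *Slc17a1* was at 227, 215, 143, 2.65 and 204 normalized counts in AL 1 to 5 and at 135, 5.65, 0, 54.2 and 0 in CR 1, 2, 3, 4 and 7. The potassium-dependent sodium-calcium exchanger gene *Slc24a3* was at 294, 231, 308, 10.6 and 118 in the same AL corneas and at 238, 9.42, 11.4, 48.0 and 0 in the CR corneas. Their log2 changes were −3.34 ± 1.78 and −2.85 ± 1.53 (adjusted p = 0.36 and 0.364 by limma). Both were among the 15 members, and 1212 of all 12281 genes, called changed without AL 4 and CR 1 together, an alternative chosen after seeing the data. For both genes AL 4, CR 2, CR 3 and CR 7 were the 4 lowest libraries, and these were also the 4 corneas with the most genes at 0 reads, 45.2%, 46.1%, 45.6% and 47.6%, against 38.7% to 42.7% in the other 6. With this share as a covariate the members called changed were *Slc16a11*, *Slc46a2* and *Slc4a7*, beside 62 of all 12278 genes. Neither *Slc17a1* nor *Slc24a3* was called in that fit. The part of this share in their values was not tested further. In the conjunctiva *Slc24a3* was at 135 to 336 in all 9 libraries, while *Slc17a1* ran from 0 to 137. Both AL and CR groups overlapped there.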
